A study of Mus musculus with 24 samples.

Results

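The comparison set SCA1+ mesenchymal cells of the mouse liver (SCA1+ Msc) that had been cultured alone for 15 days against the same kind of cells taken straight after sorting (day 0), to ask which genes changed as the cells adapted to culture. Its members are 4 RNA-seq samples, with 2 replicates at day 0 and 2 cultured alone, and were chosen by their labels from the 24 samples of the series. The cells came from wild type C57BL/6 adults aged 8 to 12 weeks. According to the methods, cells positive for SCA1 and negative for CD45, CD11b and CD31 were sorted from littermates, with no gate on PDGFRα, and were grown on plastic at the bottom of transwell plates in mesenchymal medium (MM), a basal medium with serum and WNT3A. The methods also describe a first expansion of these cells in MM before the transwell period, so that the 15 days, which are the label's, may not be their whole time in culture. The sample labels call these cells mesenchymal and ductal at once, although the sorting scheme of the study took them from the EpCAM- cells. A group of 2 further SCA1+ Msc samples was grown in the same way below ductal cells (DCs) on an insert (co-cultured) and is given side by side. EpCAM+ DCs of other littermates, sequenced at day 0 and as organoids after 15 days in Matrigel with a medium rich in growth factors (EM), served as the one other cell type taken through culture. The methods take these cells from 2 littermates and the study calls the replicates biological, but the labels do not tie a replicate to an animal, and all p-values measure the spread between these samples.

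SCA1, encoded by Ly6a, marks fibroblasts that wrap the bile ducts and vessels of the portal tract, and it is also carried by many endothelial cells. Fibroblasts taken out of tissue and put on stiff plastic in serum are known to turn on contractile and matrix genes, as they do when a wound is repaired. Enzymatic release and sorting are known to set off immediate early genes, which encode short-lived transcription factors, and heat shock genes, which encode protein chaperones, within the time a preparation takes.

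Single-end Smart-seq2 libraries, which cover whole transcripts, were made for the 12 samples of the transwell experiment. The depth behind the RPKM of a sample, estimated from what 1 read is worth, was 17556581 to 26077022 reads, and with it 92.4% to 94.1% of the low values (up to 20 reads) came within 0.02 of a whole read. Values are given as TPM, which is the deposited RPKM of a sample scaled to a sum of 1000000. A difference is the mean log2(TPM + 1) cultured alone minus that at day 0, so that 1 stands for a 2-fold rise, and this scale understates the change of low genes. The correlation of the replicates across genes, which are not independent of each other, was a Spearman rho of 0.907 at day 0 and 0.954 cultured alone. Of 9 listed transcripts of the mitochondrial genome, which every cell uses, none had a value above 0 in any sample, so that a gene listed at 0 is not taken as absent here.

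The cells kept the gene they had been sorted by. Ly6a stood at 722 and 846 TPM at day 0, at 1209 and 1116 TPM cultured alone and at 1206 and 957 TPM co-cultured (log2 difference 0.57, SE 0.13, adjusted p = 0.00657), and with sizes set by the median ratio in place of the sum its difference was 0.13 (adjusted p = 0.52), within a range of 0.00107 to 0.52 over its alternatives. Transcripts of the exclusion gates were low for CD45 (Ptprc), with 2.24 and 0.592 TPM at day 0 and listed at 0 in both libraries cultured alone, and for CD11b (Itgam), with 0.306 and 0.968 TPM at day 0. Those for CD31 (Pecam1) were not, since Pecam1 stood at 70.6 and 80.1 TPM at day 0 and at 45.8 and 82.0 TPM cultured alone. Pdgfra, the receptor that marks fibroblasts of this tissue, was at 123 and 81.2 TPM at day 0 and 274 and 194 TPM cultured alone (log2 difference 1.20, SE 0.29, adjusted p = 0.00844). Its rise did not pass the test without replicate 2 of day 0, with 0.91 (adjusted p = 0.054), or without replicate 1 cultured alone, with 0.95 (adjusted p = 0.075), over a range of 0.00277 to 0.25.

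Day 0 libraries also carried RNA of hepatocytes and red cells, which is kept apart here. The genes of the hepatocyte and red cell lists made up 7.43% and 6.61% of all TPM at day 0, 0.0879% and 0.0998% cultured alone and 0.225% and 0.127% co-cultured. Alb, the plasma protein albumin, was at 13010.0 and 9084 TPM at day 0 and 9.24 and 2.09 TPM cultured alone (log2 difference -10.92, SE 1.94, adjusted p = 0.00146). The beta globin Hbb-bs stood at 5077 and 6448 TPM at day 0 and was listed at 0 in both libraries cultured alone. Of 73 hepatocyte genes tested 72 fell, with a median difference of -6.76, and of 8 red cell genes tested 6 fell and 1 rose (0 without replicate 1 cultured alone). Since these are bulk libraries, fewer cells of a type and less of its RNA per cell cannot be told apart, here and for every cell type below. Families of near-identical copies, among them the globins, the Mup and Serpina genes, the histocompatibility genes and the Saa genes, can share or lose reads when reads are assigned, and the levels of their single members are uncertain. RNA of other cells takes part of the TPM of a library, and its part in the smaller changes was not tested beyond the rescaling given at the end.

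Across all 18136 genes tested, 4962 were higher and 3165 lower cultured alone than at day 0 (limma, adjusted p under 0.05), which is 27.4% and 17.5% of the genes and 44.8% together. At an unadjusted p under 0.05 the count was 9282. The groups did not overlap for 8126 of the 8127 genes called, but they did not overlap for 11720 of all 18136 genes tested either. With 2 libraries a side a lack of overlap is thus common, and here and below it is given as a description and not as support for a call. The median difference over all genes was 0.19. Sizes set by the median ratio moved the median of all genes by -0.44, and under them 3177 genes were higher and 4223 lower, so that 42.9% of the called genes were higher in place of 61.1%. No gene named here with a difference of 2 or more changed direction with that choice.

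**Figure D1:**
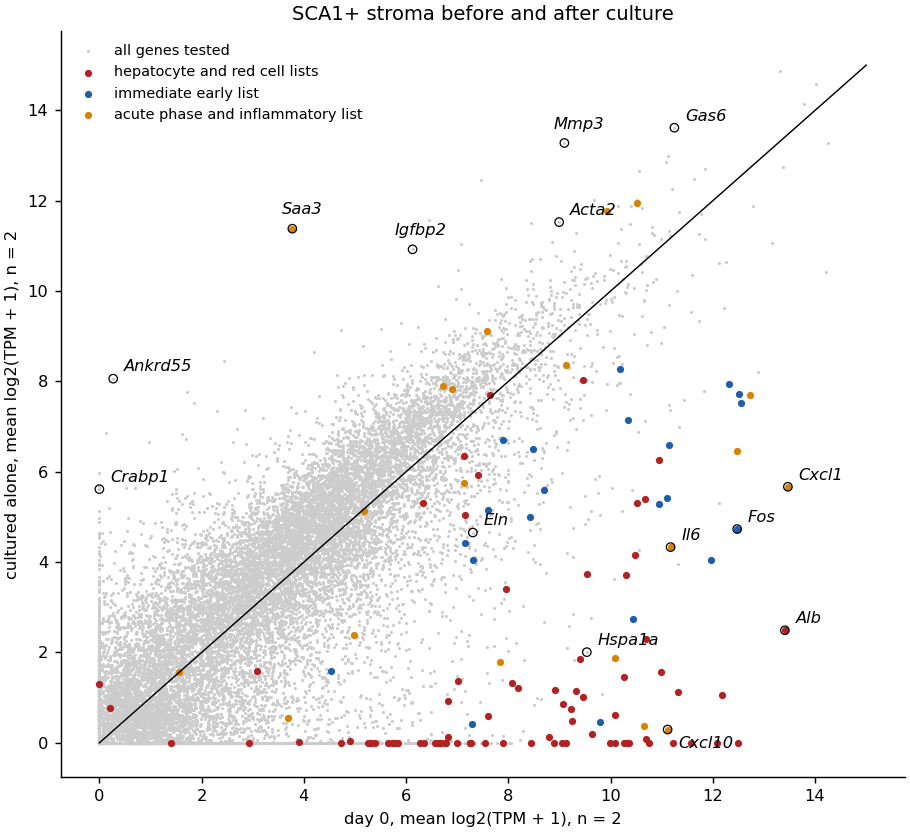
Mean log2(TPM + 1) of 2 SCA1+ Msc libraries cultured alone (vertical) against that of 2 libraries at day 0 (horizontal), 1 point per gene tested, with the hepatocyte and red cell, immediate early and inflammatory lists coloured, 14 genes named and the diagonal drawn for equal levels. Saa3 and Ankrd55 lie far above the diagonal, and Alb, Cxcl10, Fos and Hspa1a far below it.

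The gene lists used below were described by how many of their tested members passed the test in each direction and by their median difference, beside the 27.4% higher, the 17.5% lower and the median of 0.19 of all genes. No test was made of a list as a whole.

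**Figure D2:**
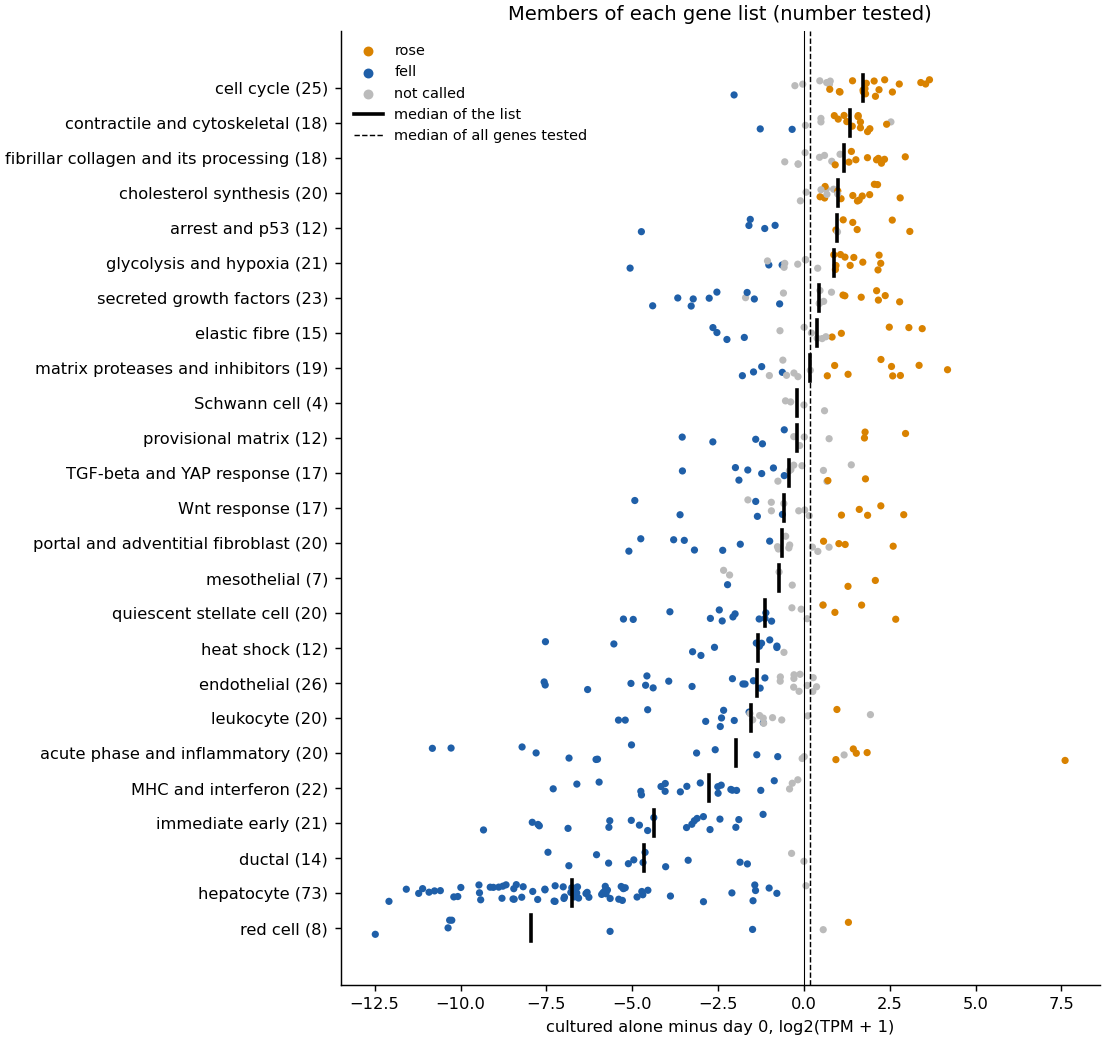
Difference in log2(TPM + 1), cultured alone minus day 0 (horizontal), for each tested gene of the gene lists (vertical), with the median of a list as a line, the median of all genes dashed, and the genes that rose, fell or did not pass the test by colour. The hepatocyte, red cell, ductal, immediate early and MHC lists lie to the left of 0, and the cell cycle, contractile and collagen lists mostly to the right.

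Of 3 genes taken as markers of the change, Saa3 rose, Eln fell and Acta2 had a large difference that did not pass the test. Saa3 (GRCm38 chr7:46711998-46715700, minus strand) encodes a serum amyloid A protein that is made outside the liver parenchyma in inflammation. It stood at 13.0 and 12.4 TPM at day 0 and at 2218 and 3199.8 TPM cultured alone, a mean 213 times as high (log2 difference 7.61, SE 0.38, adjusted p = 7.9e-07). Both cultured libraries lay far above both day 0 libraries, and the co-cultured ones higher still, at 13414 and 6582 TPM, although the difference between the cultured groups did not pass the test (log2 difference 1.82, adjusted p = 0.18). Its neighbours in the family, Saa1 and Saa2, ran the other way, with 33.7 and 27.7 against 5.47 and 3.29 TPM for Saa1 (log2 difference -2.58, adjusted p = 0.00679). With a pseudocount of 0.1 the fall of Saa1 did not pass the test, at -2.82 (adjusted p = 0.055) in a range of 0.00089 to 0.055.

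Acta2 (chr19:34241090-34255590, minus strand), the smooth muscle actin that defines a myofibroblast, had 430.3 and 601 TPM at day 0, 3072 and 2828 TPM cultured alone and 3416 and 3154 TPM co-cultured (log2 difference 2.53, SE 0.99, adjusted p = 0.064). The groups did not overlap, and the mean was 5.72 times as high. The fit pools the spread over all 12 samples, and Acta2 varied among DC libraries, which read 3.72 and 5.47 TPM at day 0 and 2.13 and 0.0879 TPM as EM organoids. The co-cultured organoids are in the fit as well and are not given here, and the part of each group in the spread of Acta2 was not tested. Fitted on the 4 samples alone its adjusted p was 0.00114, and the range over its alternatives was 0.00114 to 0.3. Eln (chr5:134702593-134747323, minus strand), the rubber-like core protein of elastic fibres, fell from 181 and 137 TPM to 24.2 and 24.2 TPM (log2 difference -2.65, SE 0.25, adjusted p = 3.4e-05), and the co-cultured libraries were as low, at 19.4 and 25.5 TPM.

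All 21 immediate early genes fell, with a median difference of -4.37. Together they took 4.03% and 3.94% of all TPM at day 0, against 0.158% and 0.175% cultured alone. Fos (chr12:85473890-85477273, plus strand), a subunit of the AP-1 transcription factor, was at 6034 and 5373 TPM at day 0 and 22.1 and 29.6 TPM cultured alone (log2 difference -7.74, SE 0.17, adjusted p = 3.9e-09). Its relative Fosb went from 885 and 883 TPM to 0.522 and 0.239 TPM (log2 difference -9.33, SE 0.24, adjusted p = 1.5e-08). Jun, the partner of Fos in AP-1, went from 2017 and 1917 TPM to 39.3 and 36.9 TPM (log2 difference -5.65, adjusted p = 3.3e-08), and Junb from 5673 and 6054 TPM to 179 and 248 TPM (log2 difference -4.79, adjusted p = 3.2e-08). Within each of these genes the day 0 replicates lay close together and far above every cultured library. The same held for Egr1, a zinc finger factor of the serum response, at 6330.5 and 5673 TPM against 167 and 199.9 TPM (log2 difference -5.03, adjusted p = 9.2e-09). Nr4a1, an orphan nuclear receptor, fell from 4153 and 3809 TPM to 13.5 and 17.8 TPM (log2 difference -7.91, adjusted p = 7.4e-09), and Atf3, a stress factor, from 1297 and 1497 TPM to 3.51 and 8.89 TPM (log2 difference -7.71, adjusted p = 2e-07). Ier3, which acts on cell survival, was at 5056 and 5205 TPM at day 0, 236 and 258 TPM cultured alone and 444 and 465 TPM co-cultured, and it fell against day 0 (log2 difference -4.37, adjusted p = 2.9e-09) while the co-cultured cells were higher than those cultured alone (log2 difference 0.88, adjusted p = 0.011), a call that was lost without either library cultured alone and without co-cultured replicate 1 (range 0.00684 to 0.161).

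Of 12 heat shock genes 11 fell, with a median difference of -1.34. Hspa1a, an inducible chaperone, was at 688 and 798 TPM at day 0 and 2.72 and 3.34 TPM cultured alone (log2 difference -7.53, SE 0.17, adjusted p = 4.7e-09). Its near-identical copy Hspa1b, with which it can share reads, read 52.7 and 62.6 TPM against 0.279 and 0.242 TPM (log2 difference -5.53, adjusted p = 2.4e-06). Hsph1, a partner of these chaperones, fell from 136 and 194 TPM to 15.0 and 17.7 TPM (log2 difference -3.24, adjusted p = 3.1e-06). Hsp90ab1, the constant form of HSP90, fell by less, from 2829 and 3391 TPM to 1308 and 1323 TPM (log2 difference -1.23, adjusted p = 4.2e-06). The 2 inducible copies thus had wider differences than the constant chaperone.

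The promoters of 6 genes of these lists are shown, 5 that fell and Saa3, which rose, each with the response element known for its class. That of Acta2 was searched for the strict CArG box, the serum response element, written as CC, 6 bases of A or T, and GG. The strict form was held by 1.63% of all such windows and by 3 of 16 contractile windows. It was also held by 5 of 24 immediate early windows, mostly those of Egr2, and by 5 of 62 hepatocyte windows. The box was thus not particular to the contractile list, and Acta2 had 0 matches. Its window does hold ccctatatgg and ccttgtttgg, which depart from the strict form in the core and were not counted, so that 0 is no absence of the element. That of Ifit1 held 2 interferon response elements, and neither window is printed. Each window runs from 250 bases before to 50 bases after the annotated start (RefSeq, GRCm38.p6), is printed 5′ to 3′ on the strand of the gene, and has the motif matches in capitals. The motifs are the NF-κB motif in Cxcl1 and Cxcl2, the cyclic AMP response core TGACGT in Fos, the heat shock element GAANNTTC in Hspa1a, the interferon response element in Isg15, where 3 matches overlap, and the C/EBP-like TTNNGNAA in Saa3. Both strands were searched for each.
Cxcl1, chr5:90890995-90891294, plus strand: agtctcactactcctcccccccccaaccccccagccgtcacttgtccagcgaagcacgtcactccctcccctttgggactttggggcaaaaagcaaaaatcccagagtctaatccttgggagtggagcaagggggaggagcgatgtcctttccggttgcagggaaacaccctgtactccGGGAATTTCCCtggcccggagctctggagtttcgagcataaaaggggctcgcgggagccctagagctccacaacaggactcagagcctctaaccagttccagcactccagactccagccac
Cxcl2, chr5:90903649-90903948, plus strand: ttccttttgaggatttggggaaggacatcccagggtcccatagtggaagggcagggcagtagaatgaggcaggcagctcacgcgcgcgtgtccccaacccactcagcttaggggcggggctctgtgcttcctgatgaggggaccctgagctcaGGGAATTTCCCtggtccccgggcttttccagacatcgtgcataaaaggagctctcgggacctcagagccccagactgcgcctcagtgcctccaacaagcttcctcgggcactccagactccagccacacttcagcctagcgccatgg
Fos, chr12:85473640-85473939, plus strand: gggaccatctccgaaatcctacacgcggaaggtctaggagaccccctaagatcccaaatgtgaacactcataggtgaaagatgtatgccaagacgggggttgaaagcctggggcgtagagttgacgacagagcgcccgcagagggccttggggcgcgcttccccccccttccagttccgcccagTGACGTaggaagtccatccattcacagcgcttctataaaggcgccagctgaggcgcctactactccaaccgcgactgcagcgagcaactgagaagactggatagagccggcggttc
Hspa1a, chr17:34972107-34972406, minus strand: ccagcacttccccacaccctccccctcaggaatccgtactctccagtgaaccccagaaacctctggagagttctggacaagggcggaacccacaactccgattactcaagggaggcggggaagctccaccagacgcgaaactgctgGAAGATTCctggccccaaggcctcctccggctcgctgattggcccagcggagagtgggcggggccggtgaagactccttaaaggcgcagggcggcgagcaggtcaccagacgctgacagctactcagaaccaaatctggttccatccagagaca
Isg15, chr4:156200769-156201068, minus strand: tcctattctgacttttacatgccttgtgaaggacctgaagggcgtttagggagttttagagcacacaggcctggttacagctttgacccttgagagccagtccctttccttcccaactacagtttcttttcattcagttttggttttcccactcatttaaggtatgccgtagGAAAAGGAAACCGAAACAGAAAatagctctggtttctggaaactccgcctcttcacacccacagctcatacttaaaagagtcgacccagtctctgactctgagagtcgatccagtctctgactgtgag
Saa3, chr7:46715627-46715926, minus strand: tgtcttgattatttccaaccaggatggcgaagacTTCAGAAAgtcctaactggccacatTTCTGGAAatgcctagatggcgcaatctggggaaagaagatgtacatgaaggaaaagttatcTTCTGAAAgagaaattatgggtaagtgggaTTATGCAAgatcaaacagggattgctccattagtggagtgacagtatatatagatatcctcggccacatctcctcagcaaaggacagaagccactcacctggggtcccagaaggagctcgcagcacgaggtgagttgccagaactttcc

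The matches began 71 bases before the start in Cxcl1, 97 in Cxcl2, 66 in Fos, 104 in Hspa1a and 78 in Isg15, and the 4 matches in Saa3 lay between 216 and 99 bases before it. Over all 32851 windows of 27025 genes, 4.51% held the NF-κB motif, 7.51% TGACGT, 7.86% GAANNTTC, 3.44% the interferon response element and 40.7% TTNNGNAA, so that the last is common. Among 17 windows of 16 inflammatory genes 6 held the NF-κB motif, those of Cxcl1, Cxcl2, Cxcl10 and Il6, which fell, and of Ccl20 and Ptx3, which did not pass the test. That motif was not particular to this list. It was held by 7 of 20 MHC and interferon windows, 5 of 24 immediate early, 3 of 16 contractile and 0 of 14 heat shock windows. Among 24 windows of 18 immediate early genes 8 held TGACGT, and among 14 windows of 9 heat shock genes 9 held GAANNTTC. Among 20 windows of 17 MHC and interferon genes 6 held the interferon response element. Several genes have more than 1 window, which overlap. A match is a stretch of letters and says nothing of whether a factor was bound in these cells.

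The list of acute phase and inflammatory genes split, with 12 of 20 members lower, 5 higher and a median of -1.98. The rises were 3 under the median ratio and without replicate 2 cultured alone. Chemokines of neutrophils, monocytes and T cells were among those that fell. Cxcl1 went from 11173 and 11479 TPM at day 0 to 26.4 and 93.3 TPM cultured alone (log2 difference -7.80, SE 0.53, adjusted p = 4.4e-06), and Cxcl2 from 1521 and 1709 TPM to 0.693 and 0 TPM (log2 difference -10.28, SE 0.32, adjusted p = 4.8e-08). Cxcl10, an interferon-induced chemokine for T cells, went from 2434 and 2019 TPM to 0.0579 and 0.422 TPM (log2 difference -10.82, SE 0.61, adjusted p = 1.5e-06), the widest fall outside the hepatocyte and red cell lists. Together with Cxcl3, Ccl2 and Ccl7, these took 2.73% and 2.83% of all TPM at day 0 and 0.0271% and 0.0447% cultured alone. The monocyte chemokine Ccl2 was at 5445 and 5872 TPM against 71.7 and 105 TPM (log2 difference -6.01, adjusted p = 6.6e-06), and Ccl7 at 6484 and 7007 TPM against 172 and 249 TPM (log2 difference -5.02, adjusted p = 2e-06).

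The cytokines Il6 and Lif fell as well. Il6 stood at 2466 and 2159.8 TPM at day 0, 16.2 and 22.7 TPM cultured alone and 76.8 and 59.9 TPM co-cultured (log2 difference -6.84, SE 0.21, adjusted p = 4.6e-08), and the co-cultured libraries were above those cultured alone (log2 difference 1.77, adjusted p = 0.03), a call that was lost without either library cultured alone and without co-cultured replicate 1 (range 0.0124 to 0.198). Lif, which signals through the same receptor chain, went from 230.3 and 227 TPM to 2.64 and 2.28 TPM (log2 difference -6.05, adjusted p = 2.9e-07). Ptgs2, the inducible cyclooxygenase of prostaglandin synthesis, went from 1229 and 956 TPM to 3.90 and 1.75 TPM (log2 difference -8.21, adjusted p = 9.6e-08). The members that rose were of another kind. Besides Saa3 they included Cxcl12, a chemokine that fibroblasts make at rest, with 1002 and 938 TPM against 3798 and 3178 TPM (log2 difference 1.84, SE 0.26, adjusted p = 0.00036), and C3, the central complement component, with 1456 and 1472 TPM against 4345 and 3623 TPM (log2 difference 1.44, SE 0.09, adjusted p = 2.9e-06). Lcn2, an iron-binding acute phase protein, read 101 and 358 TPM at day 0 and 529.7 and 570.2 TPM cultured alone (log2 difference 1.53, SE 0.55, adjusted p = 0.046). Its day 0 replicates lay far apart, and its rise was 0.62 (adjusted p = 0.32) without replicate 1 of day 0, 2.43 (adjusted p = 0.00298) without replicate 2 of day 0, 1.58 (adjusted p = 0.12) without replicate 1 and 1.47 (adjusted p = 0.15) without replicate 2 cultured alone, over a range of 0.00298 to 0.32.

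Antigen presentation and interferon response genes were mostly lower, with 19 of 22 lower, none higher and a median of -2.76. B2m, the light chain of class I molecules, went from 10009 and 8351 TPM to 2136 and 2169 TPM (log2 difference -2.09, SE 0.09, adjusted p = 2.9e-07). The class I heavy chain H2-D1 went from 3431 and 3393 TPM to 684 and 602 TPM (log2 difference -2.41, adjusted p = 9.4e-08). The class II genes named here, which mark antigen-presenting cells, fell by more. H2-Aa read 183 and 134 TPM at day 0 and was listed at 0 in both libraries cultured alone, and Cd74, the class II invariant chain, fell from 615 and 556 TPM to 5.27 and 4.72 TPM (log2 difference -6.61, adjusted p = 4e-06). Isg15, a ubiquitin-like protein induced by interferon, fell from 915 and 864 TPM to 32.9 and 31.3 TPM (log2 difference -4.75, SE 0.63, adjusted p = 0.00025), with 180.5 and 32.2 TPM in the co-cultured libraries, which lay apart from each other. Ifit1, an interferon-induced sensor of viral RNA, fell from 251 and 176 TPM to 6.23 and 7.77 TPM (log2 difference -4.73, adjusted p = 0.00058). Leukocyte genes were mixed, with 10 of 20 tested lower and 1 higher, a rise that did not hold under every alternative, and a median of -1.53. The summed level of the 23 listed leukocyte genes was 634 and 557 TPM at day 0 and 410.2 and 709 TPM cultured alone, and Ptprc was listed at 0 in both cultured libraries. Their part in the fall of class II was not tested.

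**Figure D3:**
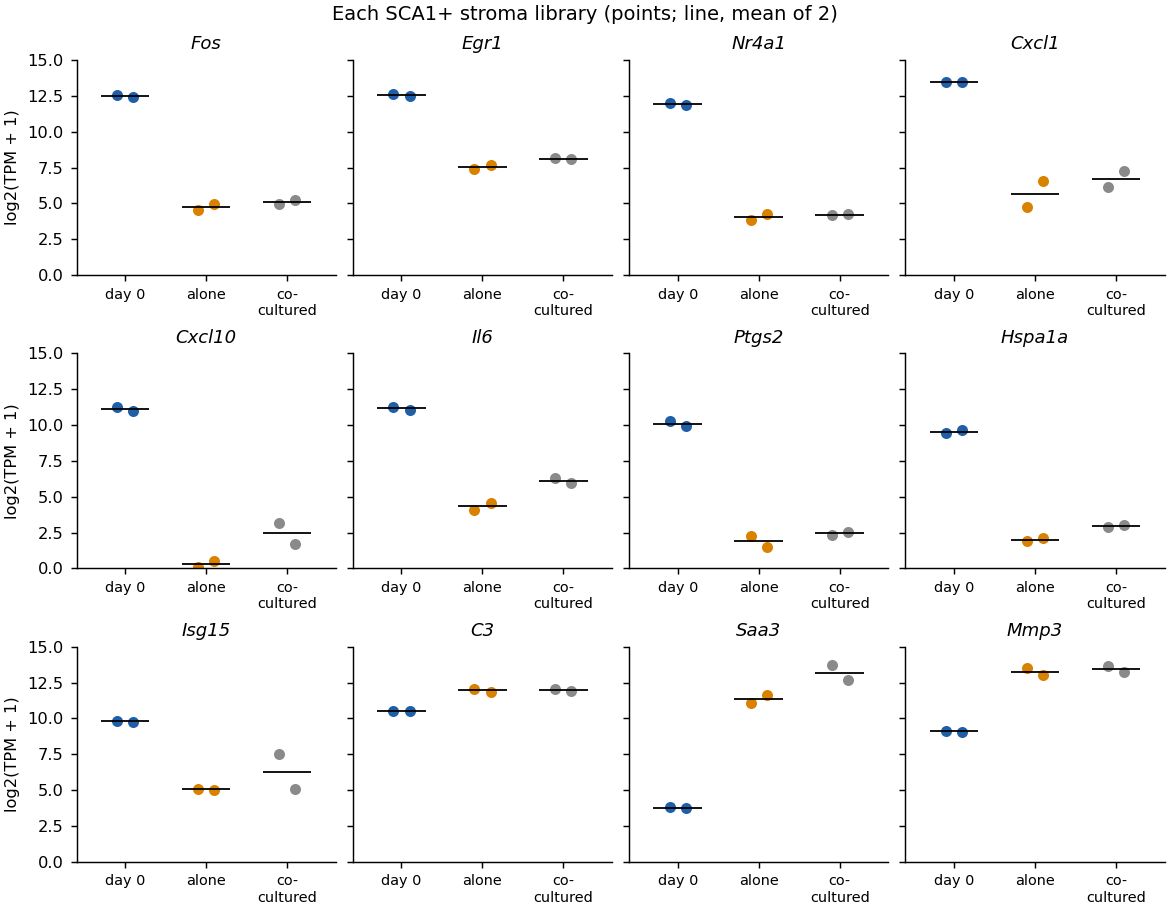
Level in log2(TPM + 1) (vertical) of 12 genes in each of the 6 SCA1+ Msc libraries, with 1 point per library and a line at the mean of the 2 libraries of day 0, cultured alone and co-cultured (horizontal). Fos, Egr1, Nr4a1, Cxcl1, Cxcl10, Il6, Ptgs2, Hspa1a and Isg15 lie higher at day 0 than in culture, and C3, Saa3 and Mmp3 lie lower.

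Most contractile and cytoskeletal genes rose, with 12 of 18 higher, 2 lower and a median of 1.33. The falls were 0 without replicate 2 of day 0 and without replicate 1 cultured alone, and 1 without replicate 2 cultured alone. Cnn2, an actin-binding calponin, went from 262 and 201 TPM to 1366 and 1096 TPM (log2 difference 2.41, SE 0.16, adjusted p = 4.7e-06). Tpm1, which lies along actin filaments, went from 245 and 236 TPM to 737 and 704 TPM (log2 difference 1.58, adjusted p = 2.3e-06), and Tpm4 from 481 and 560.1 TPM to 1675 and 1579.5 TPM (log2 difference 1.65, adjusted p = 2.2e-06). Actn1, which cross-links actin, went from 63.8 and 64.4 TPM to 250.5 and 219 TPM (log2 difference 1.85, adjusted p = 3.5e-06). Every one of these had both cultured libraries above both day 0 libraries. The smooth muscle actin Actg2 rose from 65.2 and 70.6 TPM to 283 and 238 TPM (log2 difference 1.92, adjusted p = 0.00057), although with a pseudocount of 0.1 its difference was 1.93 (adjusted p = 0.14), in a range of 3.9e-05 to 0.14. The heavy chain of smooth muscle myosin, Myh11, ran the other way, with 53.1 and 65.6 TPM at day 0 and 26.4 and 21.5 TPM cultured alone (log2 difference -1.27, SE 0.38, adjusted p = 0.022). Its fall did not pass the test without replicate 2 of day 0, with -1.12 (adjusted p = 0.091), without replicate 1 cultured alone, with -1.41 (adjusted p = 0.055), or without replicate 2 cultured alone, with -1.13 (adjusted p = 0.11), over a range of 0.00132 to 0.33.

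Fibrillar collagens and their processing enzymes followed, with 10 of 18 higher, none lower and a median of 1.18. Under the median ratio 9 were higher and 2 lower, with a median of 0.74. Col3a1, a collagen of soft tissue, rose from 2299 and 2186 TPM to 8217 and 7956 TPM (log2 difference 1.85, SE 0.32, adjusted p = 0.00129). Col1a1, the main chain of scar collagen, read 2507 and 2225 TPM at day 0 and 5123 and 4681 TPM cultured alone, with no overlap, but did not pass the test (log2 difference 1.05, adjusted p = 0.23), while fitted on the 4 samples alone its adjusted p was 0.00245 in a range of 0.00245 to 0.54. Among the enzymes, Plod2, which hydroxylates lysines for cross-links, rose from 22.1 and 29.9 TPM to 194 and 218 TPM (log2 difference 2.95, SE 0.21, adjusted p = 6.6e-06). P4ha2, a prolyl hydroxylase, rose from 17.0 and 24.6 TPM to 105 and 98.2 TPM (log2 difference 2.26, adjusted p = 2.3e-05), and Serpinh1, the collagen chaperone HSP47, from 1489 and 1432 TPM to 4389 and 3959 TPM (log2 difference 1.51, adjusted p = 7.6e-06). Serpinh1 is thus a heat shock protein by name that went against the fall of the heat shock list. Lox, which cross-links collagen and elastin, went from 106 and 139 TPM to 521 and 581 TPM (log2 difference 2.17, adjusted p = 0.00485), but to 2.18 (adjusted p = 0.14) with a pseudocount of 0.1, in a range of 0.0002 to 0.14.

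The elastic fibre list was mixed, with 5 of 15 higher, 4 lower and a median of 0.39 that turned to -0.05 under the median ratio and was 0.22 without replicate 1 cultured alone. Its rises included Fbln2, a matrix linker of vessel walls, at 68.2 and 244 TPM against 1483 and 1351 TPM (log2 difference 3.44, SE 0.44, adjusted p = 0.0002), and Efemp1, fibulin 3, at 386 and 315 TPM against 3253 and 2595 TPM (log2 difference 3.06, SE 0.21, adjusted p = 4.2e-06). Its falls, besides Eln, included Fbln5, which assembles elastin on cells, at 378 and 346 TPM against 65.0 and 88.0 TPM (log2 difference -2.24, adjusted p = 0.00046), and Ltbp4, which works beside it, at 948 and 974 TPM against 161 and 169 TPM (log2 difference -2.53, adjusted p = 7.4e-05). With a pseudocount of 0.1 Fbln5 gave -2.26 (adjusted p = 0.082), in a range of 4.7e-05 to 0.082. Elastin, Fbln5 and Ltbp4 were thus all lower in both cultured libraries, while the microfibril protein Mfap4, at 4047 and 3353 TPM against 2339 and 2204 TPM, did not pass the test (log2 difference -0.70, adjusted p = 0.24), although its groups did not overlap and its adjusted p ranged from 0.011 to 0.67, past the threshold in 3 of 12 alternatives.

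Among 12 genes of the provisional matrix 3 rose and 5 fell, with a median of -0.21. Under the median ratio 2 rose and 6 fell, with a median of -0.65, and without replicate 1 cultured alone 3 fell. Fn1, the fibronectin on which cells spread, rose from 117 and 155 TPM to 1115 and 993 TPM (log2 difference 2.96, SE 0.16, adjusted p = 1e-06), and Sparc, a collagen-binding protein, from 2255 and 2105 TPM to 7269 and 7518 TPM (log2 difference 1.76, adjusted p = 2.9e-05). Thbs1, a thrombospondin that is itself an early response gene, fell from 1555 and 1689 TPM to 123 and 154 TPM (log2 difference -3.54, SE 0.16, adjusted p = 3.5e-07). Spp1, osteopontin, was at 889.6 and 1979 TPM at day 0 and 193 and 229 TPM cultured alone (log2 difference -2.65, adjusted p = 0.00033), and it is also the most abundant of these genes in DCs, at 43285 and 45483 TPM at day 0. Its level and the ductal transcripts described below were both higher in replicate 2 of day 0, and the part of DC RNA in it was not tested.

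Proteases and their inhibitors also moved both ways, with 9 of 19 higher, 4 lower and a median of 0.19, which was -0.26 under the median ratio. Leaving out 1 library moved that median between 0.04, without replicate 1 cultured alone, and 0.72, without replicate 2 of day 0, with 2 lower in each case. Mmp3, stromelysin, stood at 553 and 539 TPM at day 0, 11608 and 8489 TPM cultured alone and 12760.5 and 9628 TPM co-cultured (log2 difference 4.18, SE 0.45, adjusted p = 7.1e-05), a mean 18.4 times as high cultured alone as at day 0. Adam12, a protease of activated fibroblasts, went from 3.52 and 1.25 TPM to 21.1 and 21.6 TPM (log2 difference 2.81, adjusted p = 0.00036). Timp1, an inhibitor of matrix metalloproteinases, rose from 384 and 319.5 TPM to 1469 and 1882 TPM (log2 difference 2.24, SE 0.24, adjusted p = 6.8e-05).

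Most genes of the cell cycle rose, with 18 of 25 higher, 1 lower and a median of 1.73. Cdk1, the kinase that drives mitosis, went from 3.58 and 1.07 TPM at day 0 to 36.7 and 38.95 TPM cultured alone (log2 difference 3.66, SE 0.32, adjusted p = 2.2e-05). Aurkb, a kinase of chromosome segregation, was listed at 0 in both day 0 libraries and read 10.4 and 10.9 TPM cultured alone (adjusted p = 3.7e-05). Ccnd1, the cyclin of the exit from rest, was at 33.7 and 30.3 TPM against 69.7 and 64.9 TPM (log2 difference 1.05, adjusted p = 0.00017). Pcna, the sliding clamp of DNA synthesis, was the member that fell, from 70.1 and 95.8 TPM to 19.3 and 19.2 TPM (log2 difference -2.03, SE 0.16, adjusted p = 1.2e-05).

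Of 12 genes of arrest and the p53 response, 6 rose and 5 fell, with a median of 0.95. The count of rises was at most 5 under every alternative run, 3 under the median ratio and without either library cultured alone, and 2 without replicate 1 of day 0, whereas 5 fell under each. The median was 0.55 under the median ratio and 0.57 without replicate 1 of day 0. Cdkn1a, the p21 inhibitor of cell cycle kinases, fell from 1106 and 1182 TPM to 384 and 369 TPM (log2 difference -1.60, SE 0.12, adjusted p = 6.3e-06). Cdkn2b, the p15 inhibitor, rose from 10.03 and 10.9 TPM to 73.9 and 125 TPM (log2 difference 3.08, SE 0.24, adjusted p = 1e-05), so that the inhibitors did not move as one. Gdf15, a stress cytokine, fell from 206 and 279.7 TPM to 8.37 and 7.77 TPM (log2 difference -4.73, adjusted p = 3.3e-05), and Ccng1, a cyclin induced by p53, rose from 15.4 and 36.9 TPM to 148 and 146 TPM (log2 difference 2.57, adjusted p = 0.00011).

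Wnt response genes and Wnt inhibitors were examined because the medium held WNT3A. Of 17 tested, 5 rose and 5 fell, with a median of -0.59. With a pseudocount of 0.1 only 1 rose and 3 fell, and on the 4 samples alone 4 rose and 2 fell. The rises were 3 without replicate 2 of day 0 and without replicate 1 cultured alone, the falls 3 without replicate 2 cultured alone, and the median -0.37 and -0.31 without replicates 1 and 2 of day 0. Axin2, the usual readout of canonical Wnt signalling, read 13.7 and 7.88 TPM at day 0 and 4.97 and 2.34 TPM cultured alone (log2 difference -1.36, SE 0.47, adjusted p = 0.042), and its fall did not pass the test without replicate 1 of day 0, at -0.99 (adjusted p = 0.19), or without replicate 2 cultured alone, at -0.94 (adjusted p = 0.23), in a range of 0.016 to 0.23. Among the secreted inhibitors, Wif1, which binds Wnt proteins, fell from 132 and 57.5 TPM to 5.59 and 0.280 TPM (log2 difference -4.93, SE 0.82, adjusted p = 0.00098). Sfrp1, another decoy of Wnt proteins, went from 392 and 301 TPM to 1610.4 and 1640.0 TPM (log2 difference 2.24, adjusted p = 0.00078), and Sfrp2 from 33.4 and 27.3 TPM to 178 and 304 TPM (log2 difference 2.91, adjusted p = 0.00057). With a pseudocount of 0.1 neither rise passed the test, at 2.24 (adjusted p = 0.061) in a range of 6.4e-05 to 0.061 and at 2.94 (adjusted p = 0.057) in a range of 0.0002 to 0.057. Dkk3, of the Dickkopf family, rose from 265 and 169 TPM to 843 and 700.3 TPM (log2 difference 1.85, adjusted p = 0.0003).

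Among genes of the TGF-β and YAP response 2 of 17 rose and 7 fell, with a median of -0.42. Under the median ratio 1 rose and 10 fell, with a median of -0.86, and without replicate 1 cultured alone 1 rose. Tgfbi, a matrix protein named for its induction by TGF-β, fell from 1797 and 1555 TPM to 401 and 503 TPM (log2 difference -1.89, SE 0.30, adjusted p = 0.0007), and the ligand Tgfb1 from 34.6 and 39.1 TPM to 6.93 and 10.3 TPM (log2 difference -1.995, adjusted p = 0.00054). Skil, a feedback inhibitor of SMAD signalling, fell from 120.3 and 128 TPM to 12.0 and 7.90 TPM (log2 difference -3.54, adjusted p = 3.7e-06).

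Secreted growth factors, through which such cells can act on ductal cells, changed in both directions, with 7 of 23 higher, 9 lower and a median of 0.45, which was 0.01 under the median ratio. Its sign rests on single libraries, since it was -0.26 without replicate 2 of day 0 and -0.52 without replicate 2 cultured alone, beside 0.11 and 0.23 without replicate 1 of each. Gas6, a ligand of TAM receptors, went from 2437 and 2423 TPM to 13502 and 11648 TPM (log2 difference 2.37, SE 0.17, adjusted p = 6.5e-06) and was the most abundant of the list. Rspo1, which amplifies Wnt signals, rose from 49.5 and 56.5 TPM to 194 and 149.7 TPM (log2 difference 1.67, SE 0.23, adjusted p = 0.0003). The fibroblast growth factors Fgf7 and Fgf2 rose as well, Fgf7 from 12.3 and 13.9 TPM to 58.3 and 61.7 TPM (log2 difference 2.12, adjusted p = 8.4e-05) and Fgf2 from 6.28 and 4.30 TPM to 46.7 and 37.6 TPM (log2 difference 2.79, adjusted p = 5e-05). Hbegf and Areg, ligands of the EGF receptor, fell, with Hbegf at 299 and 420.1 TPM against 13.2 and 18.8 TPM (log2 difference -4.40, adjusted p = 3.2e-07), and Areg at 8.83 and 8.65 TPM at day 0 and listed at 0 in both libraries cultured alone (adjusted p = 0.00031). Wnt9b, an endothelial Wnt of the liver, was at 11.3 and 12.3 TPM at day 0 and likewise listed at 0 in culture (adjusted p = 3e-05).

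Some markers of the resting fibroblast types of the liver fell, while others rose or did not pass the test. Of 20 genes of quiescent stellate cells 12 fell and 4 rose, with a median of -1.12. The rises were 2 under the median ratio and without replicate 1 cultured alone. Vipr1, a neuropeptide receptor, went from 52.8 and 47.2 TPM at day 0 to 0 and 0.773 TPM cultured alone (log2 difference -5.26, SE 0.38, adjusted p = 6.7e-06), and Angptl6, an angiopoietin-like factor, from 232 and 189 TPM to 5.19 and 6.27 TPM (log2 difference -4.97, adjusted p = 4.1e-05). Hhip, a membrane inhibitor of Hedgehog, read 16.5 and 11.8 TPM at day 0 and was listed at 0 in both libraries cultured alone (adjusted p = 1.3e-05). Dcn, the proteoglycan decorin and the most abundant gene of the list, read 16775 and 16539 TPM against 25384 and 23539.9 TPM and did not pass the test (log2 difference 0.55, adjusted p = 0.41), while fitted on the 4 samples alone its adjusted p was 0.00593 in a range of 0.00593 to 0.91. Cygb was among the rises (log2 difference 0.56, adjusted p = 0.022), but not under the median ratio (adjusted p = 0.628). The list summed to 23107 and 21889 TPM at day 0 and 28868 and 27079 TPM cultured alone, most of it Dcn.

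Of 20 genes of portal and adventitial fibroblasts 8 fell and 4 rose, with a median of -0.64. Under the median ratio 11 fell and 1 rose, with a median of -1.03, and the rises were 2 without replicate 2 of day 0 and without replicate 1 cultured alone. Gsn, gelsolin, which severs actin, fell from 16464 and 21660.4 TPM at day 0 to 1370.5 and 1350.5 TPM cultured alone (log2 difference -3.79, SE 0.20, adjusted p = 9.1e-07). Clec3b, tetranectin, fell from 260.1 and 253 TPM to 4.20 and 9.86 TPM (log2 difference -5.10, SE 0.62, adjusted p = 0.00015). Pi16 and Dpp4, which mark a progenitor-like adventitial fibroblast, fell from 133 and 376 TPM to 28.8 and 19.4 TPM for Pi16 (log2 difference -3.19, adjusted p = 0.00055) and from 29.6 and 27.3 TPM to 0 and 0.193 TPM for Dpp4 (log2 difference -4.75, adjusted p = 1.1e-05). Gli1, the Hedgehog effector that marks perivascular fibroblasts, fell from 23.5 and 14.2 TPM to 1.10 and 0.408 TPM (log2 difference -3.48, adjusted p = 0.0001). Dpt, dermatopontin, fell by less, from 2126 and 2113 TPM to 556 and 618 TPM (log2 difference -1.85, adjusted p = 4.3e-05). The rises included Ly6a and Pdgfra, given above, and Pdgfrb (log2 difference 1.02, adjusted p = 0.0124). Under the median ratio the adjusted p of Pdgfrb was 0.135. Lum, lumican, read 2875 and 2357 TPM against 3467 and 3429 TPM and did not pass the test (log2 difference 0.41, adjusted p = 0.11, range 0.03 to 0.92). Mesothelial genes stood at 30.2 and 138 TPM in sum at day 0 and at 39.4 and 41.2 TPM cultured alone, with 2 of 7 higher and 1 lower (1 higher and 3 lower without replicate 1 of day 0, 1 higher without either library cultured alone), and Schwann cell genes at 6.71 and 8.61 TPM against 2.90 and 4.27 TPM, with none of 4 tested called.

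Endothelial genes did not fall as one. Of 26 tested 15 fell, none rose and 11 did not pass the test, with a median of -1.37, and their summed level was 3586 and 3302 TPM at day 0 and 1688 and 2085 TPM cultured alone, beside 236 and 188 TPM in DCs at day 0. Among those that fell were genes of the liver sinusoid and of vessel activation. Lyve1 and Stab2, scavenger receptors of sinusoidal cells, read 37.5 and 27.0 TPM and 28.0 and 19.6 TPM at day 0 and were listed at 0 in both libraries cultured alone (adjusted p = 1.6e-06 and 3.1e-06), and Clec4g, a sinusoidal lectin, went from 203 and 190.0 TPM to 1.32 and 1.71 TPM (log2 difference -6.30, adjusted p = 2e-07). Sele, the E-selectin of activated vessels, read 188 and 181 TPM at day 0 and was listed at 0 in both (adjusted p = 2.9e-05), and Selp, the P-selectin, went from 427 and 330.3 TPM to 0 and 2.95 TPM (log2 difference -7.57, adjusted p = 1.1e-05). Receptors of VEGF and angiopoietin also fell, with Kdr at 36.9 and 28.7 TPM against 6.57 and 7.28 TPM (log2 difference -2.08, adjusted p = 0.00032) and Tek at 39.8 and 46.7 TPM against 2.43 and 0 TPM (log2 difference -4.57, adjusted p = 0.00176).

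Of the 11 endothelial genes that did not pass the test, 5 are given here, chosen after their values were seen. Cdh5, VE-cadherin, read 30.5 and 34.9 TPM at day 0, 31.4 and 57.0 TPM cultured alone and 58.2 and 43.2 TPM co-cultured (log2 difference 0.37, SE 0.31, adjusted p = 0.38), and Cldn5, a tight junction protein, read 236 and 169, 133 and 199.7 and 162 and 154 TPM (log2 difference -0.29, SE 0.35, adjusted p = 0.54). Pecam1, which was to be excluded by the CD31 gate, read 70.6 and 80.1, 45.8 and 82.0 and 96.1 and 61.5 TPM (log2 difference -0.29, SE 0.32, adjusted p = 0.5). Tie1, an endothelial receptor, was at 27.2 and 34.2 TPM against 32.0 and 41.9 TPM (log2 difference 0.26, adjusted p = 0.62), and Sox18, a transcription factor of vessels, at 69.0 and 82.0 TPM against 83.7 and 98.7 TPM (log2 difference 0.27, adjusted p = 0.58). The small differences of these 5 genes change sign with the scaling or with 1 library: the median ratio gave -0.07 (adjusted p = 0.92) for Cdh5, -0.17 (adjusted p = 0.76) for Tie1 and -0.17 (adjusted p = 0.76) for Sox18, and leaving out replicate 1 cultured alone gave 0.12 (adjusted p = 0.84) for Pecam1 and 0.00080 (adjusted p = 1) for Cldn5. Defining endothelial markers were thus measured in all 6 stromal libraries, and what share of cells this stands for was not measured.

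**Figure D4:**
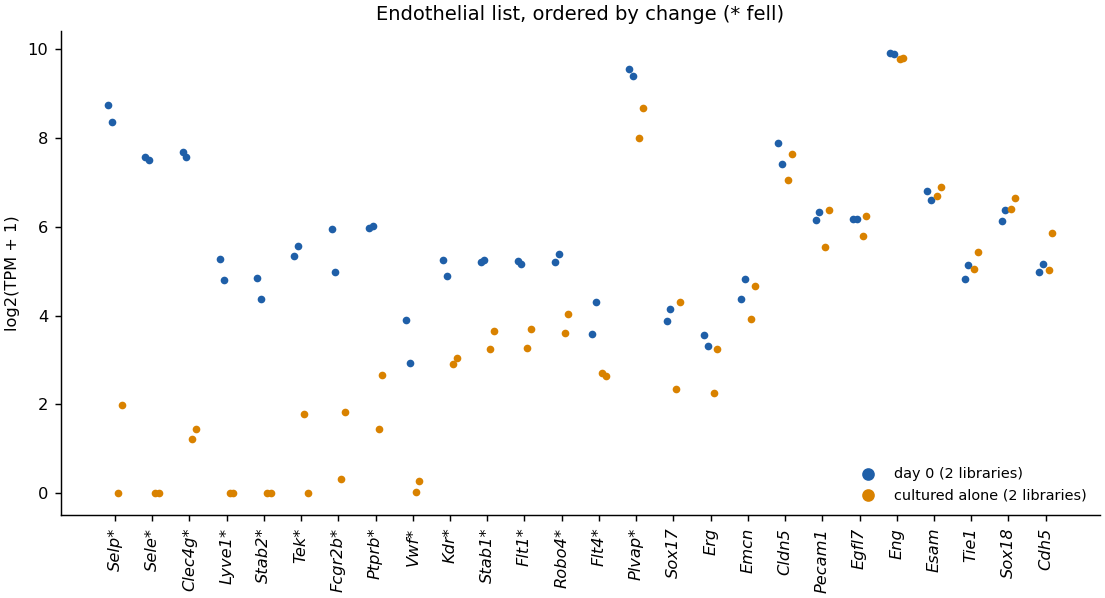
Level in log2(TPM + 1) (vertical) of the endothelial genes (horizontal) in 4 SCA1+ Msc libraries, with 2 points for day 0 and 2 for cultured alone, ordered by change, and a star on genes that fell. Cdh5, Pecam1, Cldn5, Tie1 and Sox18 did not pass the test, whereas Lyve1, Stab2 and Sele lie at 0 cultured alone.

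Ductal transcripts were present at day 0 and all but lost in culture, with 12 of 14 lower, none higher and a median of -4.66. Their summed level was 1376 and 3410.4 TPM at day 0, 50.01 and 15.2 TPM cultured alone and 22.1 and 24.6 TPM co-cultured, so that replicate 2 of day 0 held more of them than replicate 1. DCs themselves held 58725 and 55637 TPM at day 0. Krt8, a keratin of simple epithelia, read 361 and 1067 TPM at day 0 and 4.91 and 1.13 TPM cultured alone (log2 difference -7.45, adjusted p = 8e-06). Among leukocyte genes, Clec4f of Kupffer cells read 17.5 and 28.7 TPM at day 0 and was listed at 0 in both libraries cultured alone (adjusted p = 1.4e-05), while Lyz2, a lysozyme of macrophages, read 184 and 78.8 TPM against 367 and 588 TPM and did not pass the test (log2 difference 1.94, adjusted p = 0.051, range of p 0.022 to 0.25), with 2.54 (adjusted p = 0.04) without replicate 1 of day 0.

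Most genes of cholesterol synthesis rose, with 13 of 20 higher, none lower and a median of 0.98. Sqle, squalene epoxidase, rose from 23.7 and 25.3 TPM to 133 and 94.1 TPM (log2 difference 2.14, SE 0.16, adjusted p = 8.3e-06), and Mvk, mevalonate kinase, from 23.3 and 14.7 TPM to 135 and 135 TPM (log2 difference 2.80, adjusted p = 1e-05). Under the median ratio 10 rose and 1 fell, with a median of 0.56, and without replicate 2 of day 0 the median was 1.48. In glycolysis and the hypoxia response 11 of 21 rose and 3 fell, with a median of 0.87, which was 0.43 under the median ratio. Eno1, an enolase, rose from 36.9 and 30.6 TPM to 168 and 146 TPM (log2 difference 2.19, SE 0.17, adjusted p = 8.9e-06), and Ldha, which makes lactate, from 422 and 497 TPM to 1025 and 898 TPM (log2 difference 1.06, adjusted p = 0.00031). Hk2, the inducible hexokinase, ran against them, from 149 and 144 TPM to 4.24 and 2.71 TPM (log2 difference -5.06, SE 0.30, adjusted p = 2e-06). Tpi1, triosephosphate isomerase, rose from 278 and 306 TPM to 524 and 543 TPM (log2 difference 0.87, adjusted p = 0.00023) and was higher again in the co-cultured libraries, at 1045 and 860.2 TPM (log2 difference 0.83, adjusted p = 0.04 against those cultured alone), a call that was lost without either library cultured alone and without co-cultured replicate 1 (range 0.0305 to 0.242).

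Ranked by size outside the hepatocyte and red cell lists, the 12 widest rises were those of Ankrd55, Saa3, Aoc1, P4ha3, Steap1, Gdpd2, Cd200r1, Arxes2, A2m, Scel, Tcf19 and Crabp1, with differences from 5.62 to 7.79. Ankrd55, an ankyrin repeat protein, read 0.454 and 0 TPM at day 0 and 269.9 and 262 TPM cultured alone (log2 difference 7.79, SE 0.29, adjusted p = 1.6e-07). P4ha3, a prolyl hydroxylase of collagen that was in no list, read 0.570 and 5.85 TPM against 205 and 228 TPM (log2 difference 6.05, SE 0.73, adjusted p = 0.00015). Crabp1, which binds retinoic acid in the cell, was listed at 0 in both day 0 libraries and read 46.8 and 49.3 TPM cultured alone (adjusted p = 5.2e-07), and A2m, the protease inhibitor alpha-2-macroglobulin, was listed at 0 at day 0 as well and read 52.3 and 45.7 TPM (adjusted p = 1.7e-06). Steap1, a metalloreductase, read 25.5 and 0.121 TPM at day 0 and 315 and 386 TPM cultured alone, and its rise of 6.00 was 3.72 (adjusted p = 8e-05) without replicate 2 of day 0, in a range of 2.4e-06 to 0.029.

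The 12 widest falls were those of Cxcl10, Cxcl2, Fosb, Has1, Ptgs2, Rasd1, H2-Q6, Haao, Azgp1, Nr4a1, Aadac and Cxcl1, with differences from -10.82 to -7.80. Has1, a synthase of hyaluronan, went from 684 and 1211 TPM to 0.624 and 1.75 TPM (log2 difference -8.75, SE 0.65, adjusted p = 7.8e-06), and Rasd1, a small GTPase, from 269.6 and 329.6 TPM to 0 and 0.0843 TPM (log2 difference -8.17, adjusted p = 8.6e-07). Haao, Azgp1 and Aadac are hepatocyte genes by background knowledge that the hepatocyte list did not hold. Aadac, for one, read 209 and 259 TPM at day 0 and was listed at 0 in both libraries cultured alone (adjusted p = 1.3e-08).

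To see which of these changes were particular to the stroma, the change of SCA1+ Msc over culture was set against that of DCs from day 0 to EM organoids, which shares no sample with it, by the difference between the 2 changes. Of 18136 genes 4868 differed (limma, adjusted p under 0.05, 26.8% of the genes), 2231 with the higher change in stroma (12.3%) and 2637 with the lower (14.5%). The media and the matrix differed between the arms, and so did the sex genes, since Ddx3y on the Y chromosome read 41.9 to 87.6 TPM in the 6 stromal libraries and 0 in the 6 DC libraries, whereas Xist read at most 0.118 TPM in stroma and 59.0 to 124 TPM in DCs. By the methods only the stroma was expanded first, so that the time in culture may have differed as well. Culture, its length, cell type and animal cannot be told apart in this difference.

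Fos fell in both, from 1243 and 1242 TPM to 73.2 and 65.6 TPM in DCs, but further in stroma, by a difference between the changes of -3.60 (SE 0.23, adjusted p = 1.5e-05), and of the 21 immediate early genes 14 had the lower change in stroma and 2 the higher, with Klf6 and Maff as those 2. Hspa1a read 67.2 and 74.2 TPM against 19.2 and 18.5 TPM in DCs and fell further in stroma by 5.68 on the log2 scale (SE 0.23, adjusted p = 1.6e-06), and 10 of the 12 heat shock genes, Hspa1a included, had the lower change in stroma, whereas Hspb8 had the higher. Contractile genes moved apart, with 11 of 18 higher and none lower in stroma relative to DCs. Tpm1 fell in DCs, from 662 and 611 TPM to 148 and 132 TPM, while it rose in stroma (difference 3.76, SE 0.14, adjusted p = 1.4e-06). Cholesterol synthesis moved apart in the same direction in 17 of 20 genes and in none against it, with Sqle at 242 and 212 TPM against 109 and 96.3 TPM in DCs (difference 3.28, SE 0.23, adjusted p = 1.8e-05).

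Of 22 antigen presentation and interferon genes 3 had the higher and 2 the lower change in stroma, near the shares over all genes. H2-D1 read 3389 and 3023 TPM at day 0 and 626 and 599 TPM as organoids, and the changes differed by -0.02 (SE 0.12, adjusted p = 0.91). Lif likewise differed by 0.18 (SE 0.36, adjusted p = 0.76), with 574 and 411 TPM against 7.02 and 4.18 TPM in DCs. Saa3 rose in DCs too, from 0.312 and 1.04 TPM to 44.5 and 41.6 TPM, and rose further in stroma (difference 2.86, SE 0.54, adjusted p = 0.00461). Of the 3 marker genes, Acta2 had a difference between the changes of 4.12 that did not pass the test (SE 1.40, adjusted p = 0.057).

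**Figure D5:**
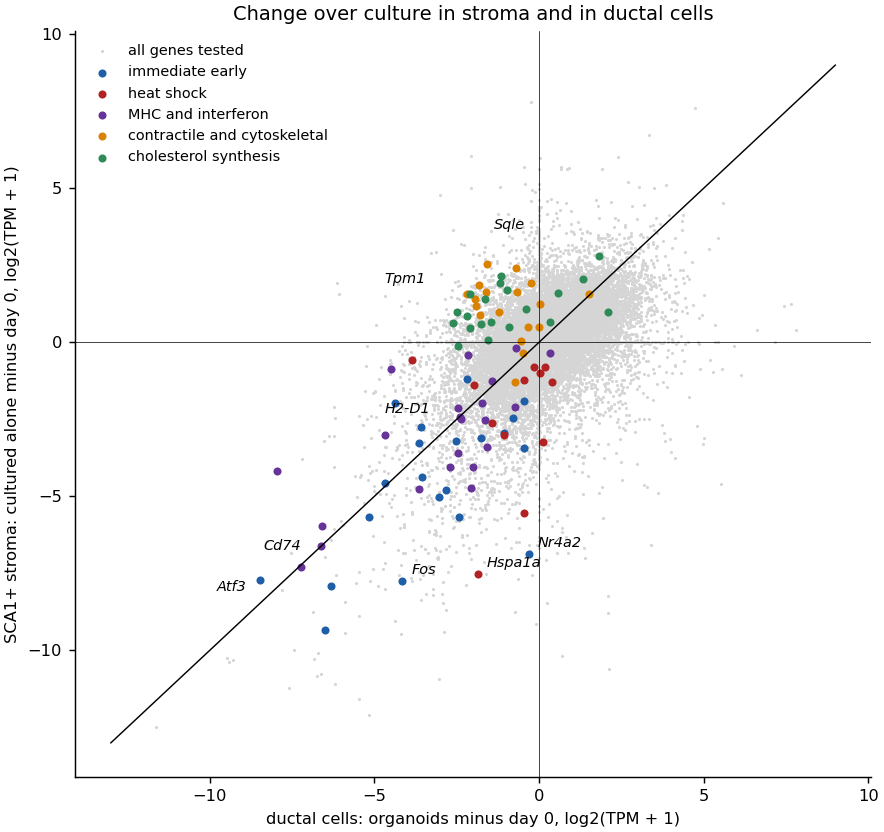
Change in log2(TPM + 1) of SCA1+ Msc cultured alone minus day 0 (vertical) against that of DCs as EM organoids minus day 0 (horizontal), 1 point per gene tested, with 5 gene lists coloured and the diagonal drawn for equal changes. Fos and Hspa1a lie below the diagonal, Tpm1 and Sqle above it, and H2-D1 and Cd74 close to it.

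Co-culture with DCs changed far fewer genes than culture itself. Between the co-cultured cells and those cultured alone 23 of 18136 genes differed (limma, adjusted p under 0.05, 0.127% of the genes), 17 higher (0.0937%) and 6 lower (0.0331%), and 1263 passed an unadjusted p under 0.05. Il6, Ier3, Tpi1, Lyve1 and Hp were the list members among them, all higher in the co-cultured libraries. Lyve1 read 3.57 and 2.75 TPM there, and Hp, the haptoglobin of the hepatocyte list, read 948 and 707 TPM against 223 and 307 TPM cultured alone (log2 difference 1.64, adjusted p = 0.044, range 0.037 to 0.284). Each of these 5 calls was lost without either library cultured alone and without co-cultured replicate 1. Without replicate 1 cultured alone or without co-cultured replicate 1 the count was 0, with 1075 and 953 at an unadjusted p under 0.05, and without replicate 2 cultured alone it was 3. Any contrast of the co-cultured libraries with day 0 or with culture alone shares those samples with the main comparison and is no separate evidence.

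The day 0 sort had no PDGFRα gate, so that it could hold both SCA1+ fractions that had been sorted separately, with n = 3 mice each, from heterozygous Pdgfra-H2BGFP mice aged 12 weeks (B6.129S4-Pdgfratm11(EGFP)Sor/J) in another experiment of the series. Those values are as the authors deposited them under the name TPM, and they were compared only within that experiment. Of 17028 genes tested there 10.9% were higher in the PDGFRα- SCA1+ fraction and 7.86% in the PDGFRα+ SCA1+ fraction. Among the 4612 genes that rose in culture and were tested in both experiments, 10.7% were higher in the PDGFRα- and 6.05% in the PDGFRα+ fraction, and among the 2997 that fell 18.6% and 14.8%, beside 11.3% and 8.16% of all 15585 genes tested in both. Without the hepatocyte and red cell lists the shares of the genes that fell were 17.9% and 15.2%. The genes that fell thus had the higher share on both sides, which was not tested.

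Values of single genes in the 2 fractions are given without a test. Sele read 12.7, 27.1 and 100.5 in PDGFRα+ cells of mice A, E and F and 1176, 2015 and 2863 in PDGFRα- cells, and Pecam1 read 0.667, 3.21 and 2.87 against 726, 732 and 929, although both had been sorted as negative for CD31. Cxcl1 read 11789, 19211 and 23303 in PDGFRα+ and 1046, 1072 and 1180.2 in PDGFRα- cells, Gsn 12159, 17297 and 18575 against 57.2, 109 and 121, and Il6 1801, 2624 and 6095 against 56.5, 85.8 and 79.8. Fos was high in both, at 6455, 4979.8 and 6770.1 against 4507, 5092 and 4025. Of the genes that rose in culture, Mmp3 read 700.0, 1392 and 1386 in PDGFRα+ and 0.168, 34.1 and 0.0946 in PDGFRα- cells, with mouse E apart among the latter, whereas Fbln2 read 23.7, 69.8 and 12.4 against 293, 207 and 315. Saa3 and Ankrd55 were low in both freshly sorted fractions, with Saa3 at 6.44, 16.8 and 16.8 against 0, 1.74 and 0.215 and Ankrd55 at 3.23, 2.10 and 2.12 against 3.30, 13.8 and 3.58.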

How the data were processed

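Smart-seq2 libraries were sequenced single end. Per the submitters' processing notes, STAR 2.5.0a and featureCounts 1.6.0 made gene counts, and the authors deposited RPKM for the 12 transwell samples, with depths estimated in the report. Counting error is thus small for all but low genes, but replicates differed by far more than it. The chi-square of their difference against counting error averaged 58.0 per gene for SCA1+ Msc at day 0 and 36.7 cultured alone. Here each column was scaled to a sum of 1000000 (TPM). Sorted fractions were deposited as a signal per gene, which the authors named TPM but whose columns summed to 847270 to 1173510, and they were used as deposited. A total of 4 columns with the authors' means were not used, and 26 symbols were dates.

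Genes with TPM of at least 1 in 2 samples (3 for sorted fractions) were fitted on log2(TPM + 1) with limma 3.58.1 (R 4.3.3), with a trend, 1 mean per group over all 12 samples and Benjamini-Hochberg adjustment at 0.05. All adjusted p-values are of this moderated test. Named genes were drawn, per list, from the 3 widest called differences and the 3 highest levels, and not all of these are printed. To them were added the 12 widest rises and falls outside the hepatocyte and red cell lists, and further genes chosen after their values were seen. The comparison, members and lists were chosen with earlier results of these data known. The script was tested on simulated data. The alternatives are given in the closing section.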

Additional observations from a re-analysis of the deposited data

Results flagged for a closer look

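The change over culture differed between SCA1+ Msc and DCs, by a test of the difference between both changes, for 4868 of 18136 genes (26.8%). Of 12 genes followed in this test 9 were past the threshold. These 12 were picked and are no random draw from all genes, so that 9 of 12 is no share to set against 26.8%. The difference between the changes (stroma minus DCs, on the log2(TPM + 1) scale) was 8.04 for Ankrd55 (adjusted p = 4.1e-06), which read 0 and 0 TPM in DC organoids. It was 3.96 for Cyr61, a matricellular target of YAP (adjusted p = 4.2e-06), which went from 12392 and 11019 TPM to 536 and 477 TPM in DCs and from 1472 and 1892 TPM to 1056 and 1191 TPM in stroma. The fall of Cyr61 in stroma (log2 difference -0.57, adjusted p = 0.011) did not pass the test without replicate 2 of day 0, at -0.39 (adjusted p = 0.073), or without replicate 1 cultured alone, at -0.49 (adjusted p = 0.073), in a range of 0.00059 to 0.21.

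The difference between the changes was 3.76 for Tpm1, 3.28 for Sqle and 2.86 for Saa3, which had the higher change in stroma. It was -5.68 for Hspa1a and -3.60 for Fos, which had the lower. Il6, with 16.03 and 16.8 TPM at day 0 and 0 and 0 TPM in organoids, differed by -2.72 (adjusted p = 0.00026). Eln, which stood under 1 TPM in every DC library of day 0 and of organoids, differed by -1.85 (adjusted p = 0.00497). For Il6 and Eln the change in DCs was bounded by the floor at 0. These 2 differences thus cannot tell a further fall in stroma from its higher level at day 0. The media, the matrix and the sex of the animals differed between the arms, the time in culture may have differed too, and their part in these differences was not tested.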

How the results depend on the processing

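Of 2262 values of single genes under an alternative, 2142 kept their direction and their side of the threshold, 86 lost the threshold, 20 gained it and 14 changed sign. Under the median ratio 3177 genes were higher in culture, and -0.44 was the difference of Fbln1, -0.066 of Cdh5, -0.039 of Lum, -0.17 of Tie1 and -0.17 of Sox18. Fbln1 also read -0.090 on RPKM as deposited and -0.098 rescaled without the hepatocyte and red cell lists. Quantile normalization gave 0.14 for Eng and 0.16 for Timp2. With 1 library left out Fbln1 ranged from -0.066 to 0.077, Pecam1 from -0.70 to 0.12, Cldn5 from -0.59 to 0.00080 and Cdh5 from -0.051 to 0.79. The cause was not tested.

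Leaving out 1 library gave 3883 to 4687 genes higher and 2539 to 3014 lower in culture. The 23 genes that differed with co-culture became 40 with a pseudocount of 0.1, 50 without a filter, 15 with a minimum of 5 TPM, 0 on the 4 samples alone (limma, 1234 at an unadjusted p under 0.05) and 0 to 27 with 1 library left out (0 without replicate 1 cultured alone, 3 without replicate 2 cultured alone and 0 without co-cultured replicate 1, with 1075, 1294 and 953 at an unadjusted p under 0.05). Replicate numbers were not used as pairs in the main fit. Deviations from the group means had a correlation of 0.0043 between day 0 and culture. With 2 samples a group this cannot tell whether a replicate number stood for the same animal. With a replicate block 4896 genes were higher and 3115 lower, 7867 of the 8127 calls were shared, 4690 differed between stroma and DCs, 3076 between the sorted fractions and 5 with co-culture.

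With 2 libraries a side, each test rests on the pooled spread of all 12 samples, which also holds DC libraries. Acta2 had an adjusted p of 0.064 in that fit and of 0.00114 on the 4 samples alone (limma). Medium, time in culture and loss of other cell types cannot be told apart.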

Other observations

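Some abundant genes outside the lists, chosen after their values were seen, also changed over culture. Wisp2, a secreted matricellular protein, rose from 77.5 and 96.1 TPM at day 0 to 3156 and 2905 TPM cultured alone (log2 difference 5.12, adjusted p = 6.2e-07). Serpina3n, an inhibitor of serine proteases with close paralogs, rose from 169 and 181 TPM to 5212 and 6119.9 TPM (log2 difference 5.004, adjusted p = 0.00024), and Igfbp2, which binds insulin-like growth factors, from 92.5 and 51.2 TPM to 1689.6 and 2227 TPM (log2 difference 4.80, adjusted p = 2.2e-06). Adora2b, an adenosine receptor, rose from 6.61 and 2.17 TPM to 156 and 169 TPM (log2 difference 5.05, adjusted p = 5.3e-05). The 4 genes had both cultured libraries above both day 0 libraries.

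Penk, the precursor of enkephalins, fell from 353 and 448 TPM to 0.638 and 1.33 TPM (log2 difference -7.67, adjusted p = 2.4e-07), and Cxcl3 from 231 and 243 TPM to 0 and 0.233 TPM (log2 difference -7.74, adjusted p = 4.8e-08). Csf3, the granulocyte growth factor, read 167 and 212 TPM at day 0, was listed at 0 in both libraries cultured alone (adjusted p = 2.7e-06) and read 2.35 and 8.43 TPM co-cultured.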
